A study of Rattus norvegicus with 6 samples.

Results

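The large-conductance (BK) and small-conductance (SK) calcium-activated potassium channels of the rat amygdala were followed at the mRNA level after a single injection of ethanol. The genes were taken by symbol: Kcnma1, Kcnmb1, Kcnmb2 and Kcnmb4 for the BK channel, and Kcnn1, Kcnn2, Kcnn3 and Kcnn4 for the SK channels and their intermediate-conductance relative. All 8 were found among the 38445 genes of the count files, and all 8 passed the filter on low counts. Adult male Sprague Dawley/WT rats were injected intraperitoneally either with saline, as the control group, or with ethanol at a dose of 1 g/kg, and their amygdala was taken after 1 h. The dissection held the central, medial and basolateral nuclei together. Each library combined RNA of 2 animals. With 6 rats per group there were 3 control and 3 ethanol libraries, and p-values measure the spread between these pools. Because the tissue is a mixture, fewer cells of a type and less RNA per cell cannot be told apart.

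BK channels open when the membrane is depolarized and calcium enters the cell at the same time, and they repolarize the action potential and shape the fast afterhyperpolarization. Kcnma1 encodes their pore-forming alpha subunit, and the Kcnmb genes encode beta subunits that set the calcium sensitivity and gating of the channel. BK channels are a well-known direct target of ethanol, and the beta4 subunit made by Kcnmb4 alters their ethanol sensitivity and tolerance. SK channels, made by Kcnn1 (SK1), Kcnn2 (SK2) and Kcnn3 (SK3), do not sense voltage and are opened by calcium through bound calmodulin, which gives the slower afterhyperpolarization that limits repetitive firing. Kcnn4 encodes the intermediate-conductance channel, which is best known in blood, immune and endothelial cells.

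Start-site sequences are shown for 3 BK genes, because they carry the contrast in level between the pore gene, an abundant beta subunit and a scarce one, and were picked after the levels were seen. Each window holds 250 bases before and 50 bases after the start that RefSeq annotates in GRCr8, 5′ to 3′ on the strand of the gene, with GC boxes (GGGCGG on either strand, overlapping matches merged) in capitals.
Kcnma1 (GRCr8 chr15:351675-351974, plus strand): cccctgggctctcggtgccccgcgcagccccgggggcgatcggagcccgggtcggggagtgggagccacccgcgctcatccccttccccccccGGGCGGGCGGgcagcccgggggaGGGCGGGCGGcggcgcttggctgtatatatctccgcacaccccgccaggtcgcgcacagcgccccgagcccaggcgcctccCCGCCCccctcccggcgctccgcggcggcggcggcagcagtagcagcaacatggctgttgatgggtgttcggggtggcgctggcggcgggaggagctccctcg
Kcnmb4 (GRCr8 chr7:54005052-54005351, minus strand): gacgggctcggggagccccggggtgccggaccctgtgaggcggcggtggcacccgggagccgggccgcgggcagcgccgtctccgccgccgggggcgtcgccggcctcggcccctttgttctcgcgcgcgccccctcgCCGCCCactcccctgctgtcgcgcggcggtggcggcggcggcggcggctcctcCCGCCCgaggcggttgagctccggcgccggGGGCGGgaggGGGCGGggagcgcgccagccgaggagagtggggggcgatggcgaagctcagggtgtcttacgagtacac
Kcnmb2 (GRCr8 chr2:116599049-116599348, plus strand): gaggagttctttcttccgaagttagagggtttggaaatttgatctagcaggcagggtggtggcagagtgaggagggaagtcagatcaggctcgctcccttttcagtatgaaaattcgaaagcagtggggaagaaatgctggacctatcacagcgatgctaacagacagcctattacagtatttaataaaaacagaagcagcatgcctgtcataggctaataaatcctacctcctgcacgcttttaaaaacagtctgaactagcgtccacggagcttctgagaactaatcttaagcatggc
The windows of Kcnma1 and Kcnmb4 were 78.3% and 80.7% G or C and held 38 and 48 CpG dinucleotides, against a median of 51.7% and 7 over the 33469 windows of the table. They held 5 and 4 matches to GGGCGG, a motif found in 33.1% of all windows. The Kcnmb2 window was 45.3% G or C, with 7 CpG and 0 GC boxes. None of these 3 windows held a TATA box (TATAAA, 14.2% of windows), a cyclic AMP response half-site (TGACG, 21.2%) or an E-box (CANNTG, 72.1%) on either strand. RefSeq listed windows for 6 of the 8 genes. Those of Kcnmb1, Kcnn2 and Kcnn3, not shown, held 6, 26 and 13 CpG and 0 GC boxes each. A link between the make-up of a window and the level of its gene was not tested. The files were counted on another build, Rnor_6.0, and the start used in the amygdala was not measured.

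Reads assigned to genes numbered 62576504 in the shallowest library and 70755739 in the deepest. A floor of 3 counts, for counting error only, was 0.0424 to 0.0479 CPM (counts scaled to library size). Over all genes, edgeR's quasi-likelihood test called 0 of 18141 at the study's threshold of an adjusted p below 0.2, with 753 at an unadjusted p below 0.05, while DESeq2 called 75 and edgeR's likelihood ratio test 77. The libraries differed in their levels of cell type markers. Summed choroid plexus markers lay between 531.2 and 1153 CPM in controls and between 12.56 and 493.8 CPM after ethanol, with ethanol 1 and ethanol 2 at 12.56 and 14.14 CPM. Of these 10 markers Otx2 was at 0 in 5 libraries and the others at 0 in none, 4 had an unadjusted p below 0.05 (Kl, Kcnj13, Sostdc1 and Folr1, all lower after ethanol, edgeR), and Ttr and Clic6 were the most abundant. Summed oligodendrocyte markers (8 genes, among them Mbp) ranged from 3727 to 8720 CPM in controls and from 4551 to 10100 CPM after ethanol. Summed neuron markers (8 genes, led by Snap25 and Syt1) were between 4167 and 5635 CPM. Astrocyte markers (led by Aqp4 and Slc1a3) summed to 4093 to 4837 CPM in controls and 4185 to 5420 CPM after ethanol, with Sox9 lower at an unadjusted p below 0.05. Striatal-type markers (led by Penk and Ppp1r1b) summed to 336.6 to 479.3 and 357.2 to 494.3 CPM. Motile cilia markers summed to 96.67 to 136.4 and 83.05 to 90.46 CPM, with Dnah9, Foxj1, Dnah11 and Tmem212 lower at an unadjusted p below 0.05. The part of these shifts in the channel values was tested only as the covariates given beside Kcnma1 and among the alternatives.

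The 8 genes spanned a wide range of levels. Per length, as RPKM (reads scaled by annotated exon length and TMM-adjusted library size), Kcnmb4 was highest at 31.4 ± 1.57 RPKM in controls and 32.9 ± 4.81 RPKM after ethanol (SD, n = 3 libraries). Kcnma1 followed at 9.8 ± 1.91 and 10.9 ± 2.53 RPKM. In each of the 6 libraries Kcnmb4 was above Kcnma1, by 2.74 to 3.69 times. The neuronal SK genes formed a middle group with Kcnn3 at 4.65 ± 0.218 and 4.55 ± 0.106 RPKM, Kcnn2 at 3.86 ± 0.300 and 3.56 ± 0.452 RPKM, and Kcnn1 at 2.51 ± 0.416 and 2.31 ± 0.205 RPKM. Their order was the same in all 6 libraries, although Kcnn3 exceeded Kcnn2 by as little as 1.1 times. Kcnmb2 was at 0.496 ± 0.0954 and 0.509 ± 0.114 RPKM. Kcnmb1 (0.128 ± 0.0555 and 0.101 ± 0.0103 RPKM) and Kcnn4 (0.0764 ± 0.00675 and 0.0756 ± 0.0136 RPKM) were lowest, and they were the only neighbours in this order whose ranges overlapped. Kcnmb1 was above Kcnn4 in 5 of 6 libraries. These levels rest on the annotated exons: Kcnmb4 has 1012 bases in 3 exonic blocks, Kcnma1 has 5431 bases in 31 blocks and Kcnmb1 has 7167 bases in 3 blocks.

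**Figure D1:**
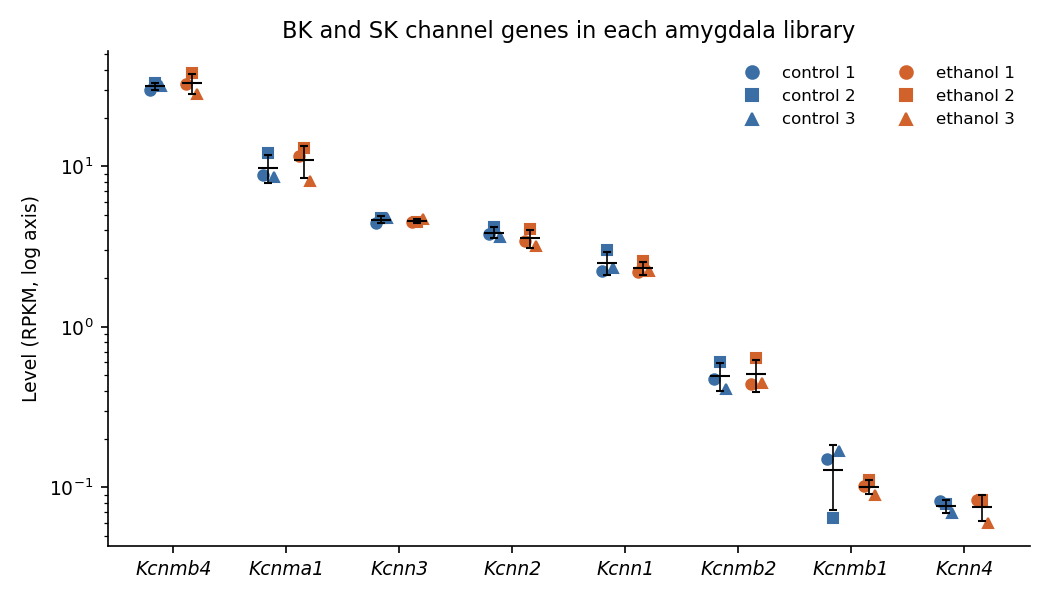
Level of each BK and SK gene (RPKM, logarithmic axis) in the 3 control libraries (blue) and 3 ethanol libraries (orange), with the shape giving the replicate number and black bars the mean ± SD. The genes run from Kcnmb4, at 28.3 to 37.9 RPKM, to Kcnn4, at 0.0599 to 0.0835 RPKM, and the blue and orange points overlap for every gene.

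None of the 8 channel genes passed the test for a change after acute ethanol, and the intervals give the sizes of change that 3 pools a group could not tell from 0. By edgeR's quasi-likelihood test, 0 of 8 had an adjusted p below 0.2 (0% of all genes tested) and 0 of 8 had an unadjusted p below 0.05 (4.15% of all genes tested, 1.57% higher and 2.58% lower after ethanol). The control and ethanol libraries overlapped for all 8, where 8.85% of all genes had groups that did not overlap (3.65% higher and 5.19% lower). DESeq2, edgeR's likelihood ratio test and limma-voom also called 0 of 8 at either threshold. The log2 fold changes ran from -0.33 (Kcnmb1) to 0.16 (Kcnma1), with 3 above 0 and 5 below 0, and their median of -0.025 lay beside 0.0064 for all genes. Kcnma1, Kcnmb2 and Kcnmb4 had positive values and the 4 Kcnn genes and Kcnmb1 negative ones, none past the test.

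**Figure D2:**
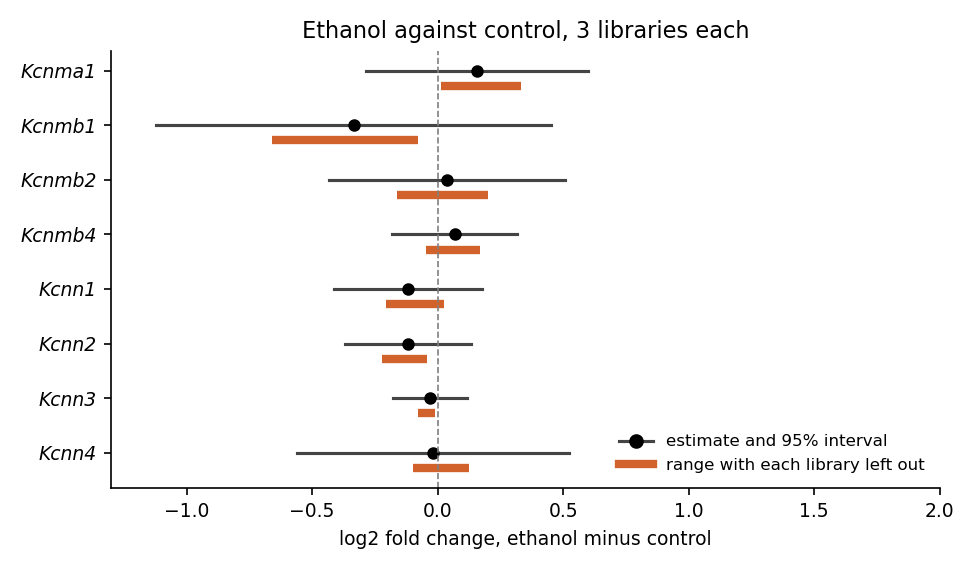
Log2 fold change (ethanol minus control) of each gene with its 95% interval from edgeR's quasi-likelihood fit (black), and the range of estimates when each of the 6 libraries was left out in turn (orange). All 8 black intervals include 0, with Kcnn3 the narrowest (-0.18 to 0.12) and Kcnmb1 the widest (-1.12 to 0.45).

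Kcnma1 (NCBI gene 83731), the BK pore gene, is annotated on the plus strand of chromosome 15 (Rnor_6.0, 344204 to 1048849), and exons make up 0.771% of its span. A predicted gene on the opposite strand, LOC103693799, lies in that span without sharing exonic bases. Its level was 48.2, 65.2 and 46.4 CPM in control libraries 1, 2 and 3, and 63.3, 70.6 and 44.0 CPM in ethanol libraries 1, 2 and 3. Control 2 was as high as the upper ethanol libraries, and ethanol 3 was the lowest of all 6. The group means were 53.2 ± 10.4 and 59.3 ± 13.7 CPM (SD, n = 3). In edgeR's fit this was a difference of 0.16 on the log2 scale (standard error 0.19, adjusted p = 1.0). The 95% interval of the fold ran from 0.82 to 1.51, so larger changes in either direction lay outside it. An exact permutation test over the 20 assignments of the libraries gave p = 0.8, where 3 against 3 can reach no less than 0.1. The estimate depended on single libraries. It was 0.01 without ethanol 2 and 0.33 without ethanol 3 or without control 2, none of them with an adjusted p below 0.2 (0.575 to 1.0 with any library left out, edgeR).

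What stood out for Kcnma1 was its spread within the groups. The coefficient of variation was 19.5% in controls and 23.2% after ethanol, where counting error alone accounts for about 1.64%. Its pooled within-group SD of 0.316 on the log2 CPM scale was above that of 97.5% of the 4891 genes within 2-fold of its CPM level, whose median SD was 0.088. The spread ran with markers of cortical-type glutamatergic neurons, which the basolateral nucleus also contains, and in part against striatal-type and oligodendrocyte markers. As deviations from the 6-library mean in log2 CPM, these last lists were at -0.346 and -0.645 in control 2. They were at -0.33 and 0.034 in ethanol 2 and at 0.362 and 0.624 in ethanol 3. From high to low, Kcnma1 ordered the libraries as ethanol 2, control 2, ethanol 1, control 1, control 3 and ethanol 3. The summed level of the 8 cortical-type markers was 607.6, 1085 and 818.3 CPM in controls 1 to 3 and 964.5, 1268 and 581.7 CPM in ethanol 1 to 3. Both orders began with ethanol 2, control 2 and ethanol 1 and both ended with ethanol 3. None of the 8 markers was at 0. Among them, Slc17a7, which encodes the vesicular glutamate transporter VGLUT1, was at 413.1, 770.1 and 553.9 CPM in controls and 667.6, 878.8 and 425.0 CPM after ethanol. Bhlhe22, a transcription factor of projection neurons, was at 113.4, 171.6 and 157.3 CPM in controls and 169.7, 223.3 and 88.96 CPM after ethanol. Tbr1, a pallial neuron factor, did not follow this order: it averaged 21.3 ± 1.44 CPM after ethanol and 14.6 ± 0.758 CPM in controls (SD, n = 3), with no overlap (log2 fold change 0.55, edgeR's adjusted p = 0.818). With the mean log2 level of the 8 markers as a covariate, chosen after the data were seen, the log2 fold change of Kcnma1 was 0.08 (standard error 0.08, edgeR's adjusted p = 0.967). With an oligodendrocyte marker score it was 0.23 (standard error 0.13, edgeR's adjusted p = 0.976). With a choroid plexus marker score it turned to -0.23 (standard error 0.28, edgeR's adjusted p = 0.913). That score was higher in every control than in every ethanol library, so this fit tells the score and ethanol poorly apart.

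The genes whose log2 CPM followed Kcnma1 most closely over the 6 libraries were Amigo1, Spock2 and Got2, with Pearson correlations of 0.997, 0.997 and 0.996. Amigo1 encodes an accessory protein of Kv2 potassium channels, Spock2 an extracellular proteoglycan and Got2 the mitochondrial aspartate aminotransferase. Such a pattern was common, since 900 of the 10421 genes with a mean of at least 10 CPM had a correlation of 0.9 or more with Kcnma1. These are descriptions over 6 pools, and each pool's cell make-up is shared by all of its genes.

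**Figure D3:**
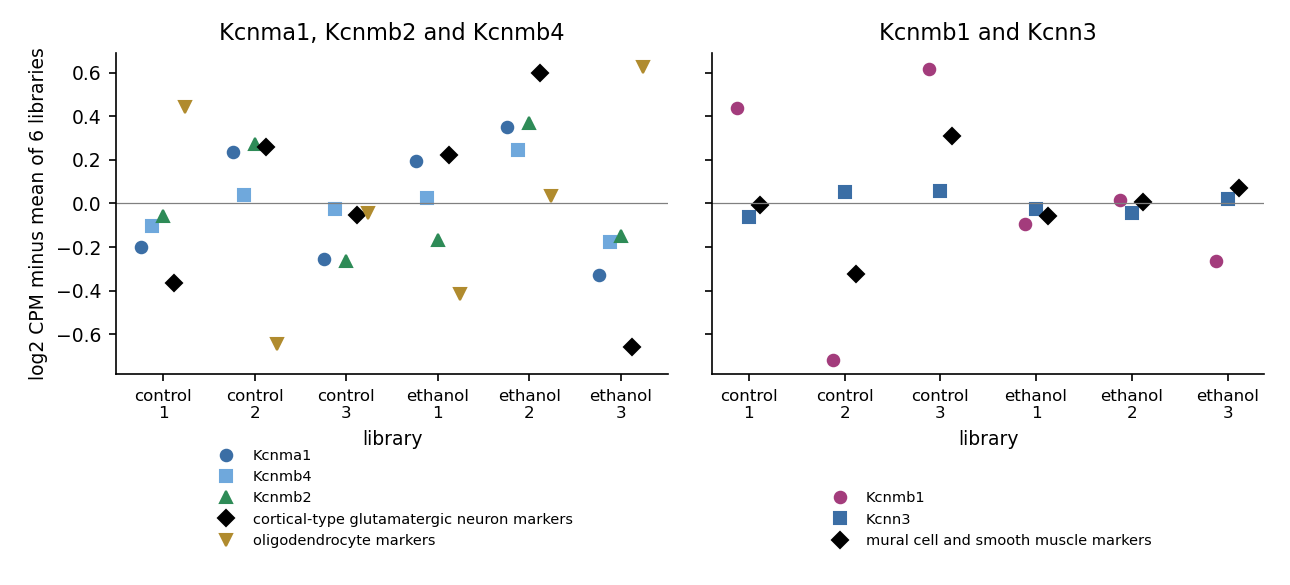
Deviation of each library from the 6-library mean (log2 CPM) for Kcnma1, Kcnmb4 and Kcnmb2 with the mean of the cortical-type glutamatergic neuron and oligodendrocyte marker lists (left), and for Kcnmb1 and Kcnn3 with the mean of the mural cell list (right). Kcnma1 is at 0.24 and 0.35 in control 2 and ethanol 2 and at -0.33 in ethanol 3, where the cortical-type markers are at 0.26, 0.60 and -0.66, and Kcnn3 stays within 0.064 of its mean.

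Among the beta subunits, Kcnmb4 (NCBI gene 66016, chromosome 7 of Rnor_6.0 from 59461808 to 59514759, minus strand), the neuronal beta4, was at 30.2, 33.3 and 31.9 CPM in controls 1 to 3 and at 32.96, 38.4 and 28.7 CPM in ethanol 1 to 3. Ethanol held both the highest and the lowest library. Its log2 fold change was 0.07 (standard error 0.11, edgeR's adjusted p = 1.0), with a 95% interval of the log2 fold change from -0.18 to 0.32. Kcnmb2 (NCBI gene 294961, chromosome 2 from 118276298 to 118585321, plus strand) encodes beta2, which adds an inactivation domain to the channel. It was low, with 187, 256 and 157 counts in controls and 170, 248 and 187 counts after ethanol, or 2.48 to 3.85 CPM. The libraries numbered 2 were again the highest of their groups. Its log2 fold change of 0.04 (standard error 0.20, edgeR's adjusted p = 1.0) had a 95% interval of the fold from 0.74 to 1.42. Kcnma1, Kcnmb2, Kcnmb4, Kcnn1 and Kcnn2 all had control 2 and ethanol 2 as their 2 highest libraries, which made 5 of the 8 genes. The same held for 2173 of the 18141 genes tested (11.98%), and 8 genes that share the cell make-up of a pool are not independent.

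Kcnmb1 (NCBI gene 29747, chromosome 10 from 18910586 to 18922856, plus strand) encodes beta1, the subunit of vascular smooth muscle. It lies within the span of Kcnip1 on the opposite strand, with no exonic bases shared, and the counting used strand. Only 70, 33 and 77 reads were counted in controls 1 to 3 and 47, 51 and 45 after ethanol. The ethanol libraries were close together at 0.646 to 0.793 CPM, between control 2 at 0.465 CPM and controls 1 and 3 at 1.07 and 1.21 CPM. The log2 fold change was -0.33 (standard error 0.34, edgeR's adjusted p = 1.0), with a 95% interval of the fold from 0.459 to 1.37. Single controls moved it in both directions. Without control 3 the log2 fold change was -0.079 (standard error 0.36) and without control 1 it was -0.21 (standard error 0.40), both with an adjusted p of 1.0 in edgeR. Without control 2 it was -0.66 (standard error 0.20), with an unadjusted p of 0.0145 and an adjusted p of 0.975 from edgeR's quasi-likelihood test. Control 2 was also lowest, and control 3 highest, in summed mural cell and smooth muscle markers (10 genes), which stood at 145.1, 122.0 and 178.2 CPM in controls and 144.6, 143.1 and 156.5 CPM after ethanol. Of these markers, Pdgfrb, a pericyte receptor, was at 30.39 to 33.02 CPM in controls and 30.15 to 32.31 CPM after ethanol. Rgs5, a pericyte signalling regulator, was at 20.74 to 23.86 and 19.81 to 27.77 CPM, and none of the list was at 0. The smooth muscle genes of the list spread more widely over controls 1 to 3. Acta2 was at 14.62, 9.938 and 21.68 CPM there and at 12.77, 15.29 and 13.73 CPM after ethanol. Tagln was at 17.17, 11.92 and 25.28 CPM and at 13.2, 18.1 and 18.91 CPM. Myh11 was at 21.71, 17.74 and 28.23 CPM and at 20.36, 20.31 and 23.31 CPM. Cnn1 was at 0.566, 0.366 and 1.12 CPM and at 0.483, 0.886 and 0.402 CPM. Whether the share of vessels in the tissue bears on Kcnmb1 was not tested.

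Of the SK genes, Kcnn3 (NCBI gene 54263, chromosome 2 from 188837280 to 188991794, plus strand) was the steadiest. It was at 25.8, 27.9 and 28.0 CPM in controls 1 to 3 and at 26.5, 26.2 and 27.4 CPM in ethanol 1 to 3, and the highest library exceeded the lowest by 1.09 times. Its pooled SD of 0.054 was above that of only 14.6% of the 5019 genes of like level, and its coefficient of variation was 4.7% in controls and 2.3% after ethanol, where counting alone accounts for 2.36%. The log2 fold change of -0.03 (standard error 0.06, edgeR's adjusted p = 1.0) had a 95% interval of the fold from 0.883 to 1.09, the tightest of the 8 genes. The genes with the pattern most like it were Cars2, Tctn1 and Dennd2b (Pearson correlations of 0.990, 0.966 and 0.965 over 6 libraries), and 39 of 10421 genes reached 0.9.

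Kcnn2 (NCBI gene 54262, chromosome 18 from 39331894 to 39479574, plus strand), whose SK2 channel sits in dendritic spines and dampens synaptic potentials, was at 17.7, 19.7 and 17.0 CPM in controls 1 to 3 and at 16.1, 19.1 and 14.95 CPM after ethanol. Ethanol 1 and ethanol 3 were below all controls, and ethanol 2 was above 2 of them. Its log2 fold change was -0.12 (standard error 0.11, edgeR's adjusted p = 1.0), with a 95% interval of the fold from 0.775 to 1.1. The log2 fold change was -0.22 without ethanol 2 (standard error 0.10, edgeR's adjusted p = 1.0), -0.042 without ethanol 3 and -0.053 without control 2. Kcnn1 (NCBI gene 54261, chromosome 16 from 20325270 to 20349163, plus strand) was at 14.5, 19.5 and 15.2 CPM in controls and at 14.3, 16.7 and 14.4 CPM after ethanol. Control 2 stood above the other libraries, and the remaining values overlapped. The log2 fold change was -0.12 (standard error 0.13, edgeR's adjusted p = 1.0), with a 95% interval of the fold from 0.75 to 1.13.

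Kcnn4 (NCBI gene 65206, chromosome 1 from 81227855 to 81245986, plus strand) was barely present, with 27, 28 and 22 counts in controls and 27, 27 and 21 counts after ethanol. These are above the 3-count floor in every library. Vom2r7, on the same strand, overlaps the span of Kcnn4 without sharing exonic bases. The libraries varied no more than counting would give, with a coefficient of variation of 8.8% in controls and 18.0% after ethanol against 19.9% from counting. Its log2 fold change of -0.02 (standard error 0.23, edgeR's adjusted p = 1.0) left a 95% interval of the fold from 0.677 to 1.44. Markers of the cells that Kcnn4 is best known from were present throughout. The 8 microglia markers summed to 391.4 to 462.4 CPM in controls and 403.7 to 475.0 CPM after ethanol, and the 8 endothelial markers to 235.3 to 268.6 and 236.8 to 263.9 CPM, with none at 0. Csf1r was among the most abundant of the microglia list, and Flt1 and Slco1a4 were the most abundant of the endothelial list. Tmem119 was at 16.8 CPM in controls and 25.0 CPM after ethanol (log2 fold change 0.57, edgeR's unadjusted p = 0.00684). Kdr was at 18.7 and 13.9 CPM (log2 fold change -0.43, edgeR's unadjusted p = 0.0102). Neither had an adjusted p below 0.2. The median log2 fold change was 0.048 for the microglia list and -0.018 for the endothelial list. The part of either list in the Kcnn4 level was not tested.

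To compare the channel genes without any scaling between libraries, ratios of read counts were formed within each library. The counts were not scaled by exon length, so the level of a ratio does not give the proportion of its subunits. Per length, Kcnmb4 was above Kcnma1 by 2.74 to 3.69 times. The ratio of Kcnmb4 to Kcnma1 counts was 0.626, 0.511 and 0.688 in controls 1 to 3 and 0.521, 0.543 and 0.651 in ethanol 1 to 3. Control 2 and ethanol 1 gave the lowest ratios, and control 3 and ethanol 3 the highest of their groups. The difference of the mean log2 ratio, ethanol minus control, was -0.086 (exact permutation test, 2-sided, p = 0.8). For Kcnmb2 to Kcnma1 it was -0.111 (exact permutation p = 0.8), with ethanol 1 the lowest library at a ratio of 0.042 and the others at 0.054 to 0.061. For Kcnn2 to Kcnn3 it was -0.092 (exact permutation p = 0.7), with overlapping groups. The summed counts of Kcnn1, Kcnn2 and Kcnn3 relative to Kcnma1 were 1.204, 1.031 and 1.298 in controls and 0.899, 0.876 and 1.289 after ethanol. Ethanol 1 and ethanol 2 lay below all controls while ethanol 3 lay among them, and the log2 difference of -0.222 gave an exact permutation p of 0.3. Adjusted over the 4 ratios by Benjamini-Hochberg, each p was 0.8.

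**Figure D4:**
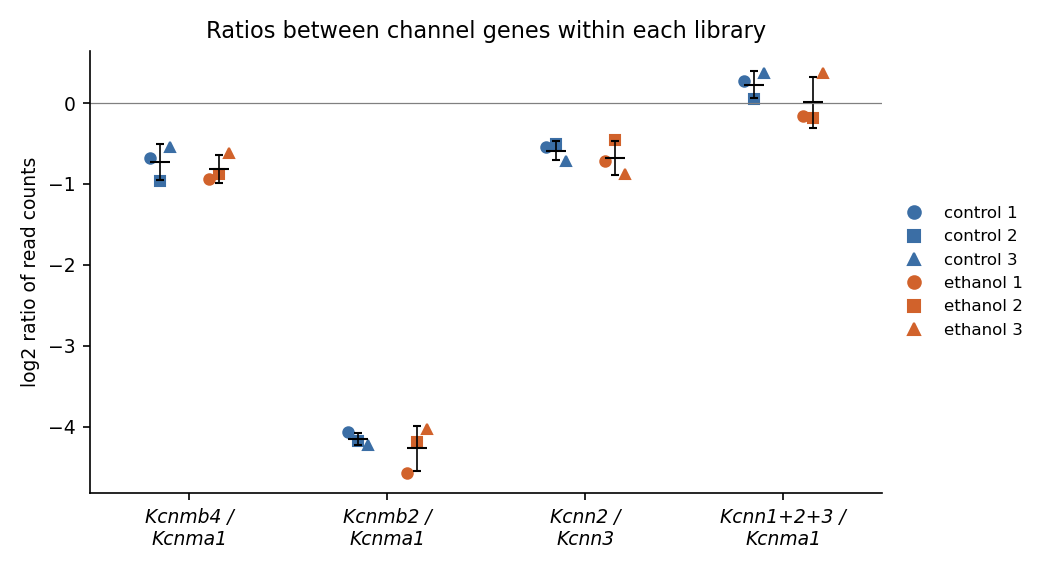
Log2 ratios of read counts between channel genes within each library for the 3 control (blue) and 3 ethanol (orange) libraries, with the shape giving the replicate number and black bars the mean ± SD. The groups overlap for each ratio, and SK pore counts relative to Kcnma1 average 0.229 in controls and 0.007 after ethanol. Counts are not scaled by exon length.

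The partners of these channels were examined in 4 lists with 42 genes in all, of which 37 were tested. With edgeR's quasi-likelihood test, 0 of 37 had an adjusted p below 0.2, and 2 had an unadjusted p below 0.05, a share near the 4.15% of all genes tested. That count was 1 without control 2, control 3 or ethanol 1, and 5 without ethanol 3. Over all genes tested, 689 of 18391, 570 of 18401 and 659 of 18439 had such a p in the first 3 fits. Without ethanol 3 it was 1629 of 18356, against 753 of 18141 in the main test. The 2 genes of the main test are described by their values, and belonged to the 10 regulators of BK channels. The median log2 fold change of these regulators was 0.083, beside 0.0064 for all genes, with 9 of 10 above 0. Above 0 were also 7 of 9 SK complex partners, 1 of 4 gamma subunits and Slo-family channels, and 5 of 14 calcium sources. The neuron markers had 6 of 8 above 0 and a median of 0.113. Stx1a, the syntaxin of the presynaptic release machinery that binds BK channels, was at 89.96, 104.0 and 104.8 CPM in controls 1 to 3 and 123.9, 122.6 and 106.3 CPM after ethanol. All ethanol libraries were above all controls, as for 3.65% of all genes, with a log2 fold change of 0.24 (standard error 0.09, edgeR's unadjusted p = 0.0256, adjusted p = 1.0). Prkcb, which encodes protein kinase C beta, was at 164.8, 144.0 and 145.7 CPM in controls and 211.6, 175.8 and 162.2 CPM after ethanol. The groups overlapped, since ethanol 3 was below control 1, and the log2 fold change was 0.27 (standard error 0.11, edgeR's unadjusted p = 0.0351, adjusted p = 1.0). The most abundant regulators were Atp2b1, a plasma membrane calcium pump, at 0.08, and Lingo1, a membrane protein that associates with BK channels, at 0.21 (log2 fold changes, standard errors 0.11 and 0.17).

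None of the SK complex partners passed the test. They include calmodulins, the kinase and phosphatase subunits that set calcium sensitivity, and the anchoring and scaffold proteins Actn2 and Mpp2. Of 10 such genes, 9 were tested, and their log2 fold changes ran from -0.022 to 0.127 with a median of 0.052. Calm2, which encodes calmodulin, the calcium sensor bound to SK subunits, was at 592.8 to 681.9 CPM over the 6 libraries, with a log2 fold change of 0.05 (standard error 0.08). The catalytic subunit gene Ppp2ca had at most 1 count in a library and was not tested. The authors did not count reads that align to several places, and whether this bears on Ppp2ca was not tested. Among the gamma subunits and other Slo-family channels, 4 of 8 were tested, with a median log2 fold change of -0.058. Kcnt1, the sodium-activated Slack channel, was at 101.0 to 121.4 CPM with a log2 fold change of -0.07 (standard error 0.08). Lrrc55, a BK gamma subunit, was at 34.85, 39.75 and 41.42 CPM in controls and 34.77, 35.84 and 54.8 CPM after ethanol (log2 fold change 0.11, standard error 0.17), with ethanol 3 standing above the rest. Lrrc26, the gamma subunit of secretory epithelia, was at 0 counts in all 6 libraries, and Kcnmb3 had 1 count in control 2 and 0 in the others. Of the 14 calcium channels and release channels that supply these potassium channels, 0 had an unadjusted p below 0.05, 5 were above 0 and 9 below, and their median log2 fold change was -0.035. The most abundant were Cacna1e, the R-type channel, with a log2 fold change of 0.10 (standard error 0.12), and Itpr1, the neuronal inositol trisphosphate receptor, with 0.16 (standard error 0.07, edgeR's unadjusted p = 0.072).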

How the data were processed

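RNA-seq was carried out on 6 amygdala libraries. Single-end reads of 100 nt were aligned with STAR 2.7.0f (submitters' processing notes). The authors deposited unnormalized counts per gene, made with featureCounts 1.6.3 (strand setting 2, exons of Rnor_6.0, multi-mapping reads not counted, per the file headers). RefSeq gave symbols for 29322 of 38445 genes.

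The main test was edgeR (4.0.16, in R 4.3.3), fitted by quasi-likelihood to all 6 libraries after filterByExpr (10 counts, 15 in total) and TMM scaling, with Benjamini-Hochberg adjustment across the 18141 genes left. Scripts were tested on simulated data. Log2 CPM used a prior count of 2, and ratios a pseudocount of 0.5. Alternatives were DESeq2 1.42.0, the likelihood ratio test, limma-voom (limma 3.58.1), other scalings and filters, a replicate block and each library left out, and 3 marker scores added after seeing the data. Replicates varied beyond sampling noise (chi-square per degree of freedom 15.3 to 72.6).

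The members and lists were chosen with earlier results of these data known. Named besides the 8 genes were the 2 most abundant genes of each list and those with an unadjusted p below 0.05, and the 3 most correlated with Kcnma1 and with Kcnn3. Some genes that this rule names are not reported here. Lrrc26, Kcnmb3, Ppp2ca, Otx2, Acta2, Tagln, Myh11 and Cnn1 were named after their values were seen.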

Additional observations from a re-analysis of the deposited data

How the results depend on the processing

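No alternative gave a channel gene or a partner gene an adjusted p below 0.2, including the other scalings, filters and tests, the 6 fits without 1 library and 3 fits with a marker score. DESeq2 called 75 and edgeR's likelihood ratio test 77 of all genes, against 0 with the quasi-likelihood test, and the cause was not tested. The choroid plexus marker score gave 1. Left-out libraries gave 0 to 83 calls over all genes (83 without ethanol replicate 3), 0 to 1 channel genes at an unadjusted p below 0.05 (Kcnmb1, without control replicate 2) and 1 to 5 partner genes, against 2. Over all genes tested, the fits with a library left out had 570 (without control replicate 3) to 1629 (without ethanol replicate 3) such genes. The main test had 753. Partner genes at that p numbered 4 with the cortical-type score and 1 with the choroid plexus score. With these scores, 1202 and 993 of all 18141 genes tested had such a p.

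With the replicate number as a block, 0 genes were called, 1015 had an unadjusted p below 0.05, and no channel gene had one. The ratio differences of -0.086, -0.111, -0.092 and -0.222 could not change with the block. The mean of the same-numbered differences always equals the difference of the group means, so their steadiness is no check of these values. The replicate numbers were not treated as pairs in the main test. Same-numbered libraries correlated by 0.026, 0.388 and 0.211, and differently numbered ones by -0.427 to 0.305 (control 1 with ethanol 3). These values do not settle whether the numbers mark pairs.

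Small fold changes turned sign. With the choroid plexus score they were -0.234 for Kcnma1, -0.074 for Kcnmb2, -0.144 for Kcnmb4 and 0.0306 for Kcnn3. As a deviation in log2 CPM, that score was at 0.944 to 2.101 in controls and at -2.818 to 0.91 after ethanol. Because it did not overlap between the groups, that fit tells the score and ethanol poorly apart. Kcnmb2 was at -0.0086 with the cortical-type score, and Kcnn4 at 0.00666 with the oligodendrocyte score. Left-out libraries gave 0.0117 to 0.331 for Kcnma1, -0.658 to -0.0792 for Kcnmb1, -0.222 to -0.0424 for Kcnn2, -0.0768 to -0.01 for Kcnn3, -0.161 to 0.199 for Kcnmb2, -0.0446 to 0.167 for Kcnmb4, -0.207 to 0.0262 for Kcnn1 and -0.0973 to 0.126 for Kcnn4. They gave -0.206 to 0.008 for the ratio of Kcnmb4 to Kcnma1 (without control replicate 3 at the upper end), -0.228 to 0.043 for Kcnmb2 to Kcnma1 (without ethanol replicate 1), -0.204 to 0.004 for Kcnn2 to Kcnn3 (without ethanol replicate 3) and -0.402 to -0.124 for SK to Kcnma1. Kcnmb1 and Kcnn4 were not tested under the filter of 1 CPM. With 3 libraries a group, the printed intervals of the channel genes all include no change, and they leave changes of any size within them possible.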
